A study of Mus musculus with 4 samples.

Results

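Myoepithelial cells of the mouse salivary glands were chosen by their own transcripts in a single-cell RNA-seq matrix, and 105 of 15707 cell barcodes met the choice, or 0.668% (95% interval 0.547% to 0.809%, exact binomial). A member had at least 2 transcript molecules (UMIs) of Acta2, Cnn1 and Myh11 together, the actin, calponin and heavy myosin chain of smooth muscle. It also had at least 1 UMI of the basal keratins Krt5 and Krt14 together. At most 1 UMI of the pericyte genes Rgs5 and Notch3 together was allowed, and none of Ptprc, the leukocyte antigen CD45. These 8 genes chose the cells, so their values are given as description. The name stands for this choice, and it is less sure for 42 members with 2 to 6 contractile UMIs, described below. It is most in doubt for 26 of these, whose RNA was mostly secretory. A further 13 members had 9 or more contractile UMIs beside mostly secretory RNA, so their profile is mixed.

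Myoepithelial cells are flat epithelial cells that lie between the basement membrane and the secretory cells of acini and intercalated ducts. They carry the contractile machinery of smooth muscle beside the keratins of a basal epithelial cell. When secretion is stimulated they contract and help to press saliva into the ducts.

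The study dissociated submandibular and sublingual glands of untreated wild-type female C57BL/6N mice aged 6 to 8 weeks and made droplet libraries that count UMIs. All 4 samples belong to that single group, with both glands together and no treatment. The labels speak of 2 mice and the methods text of 3, and cells of several animals were pooled. The deposited matrix joins the 4 samples with 1 barcode suffix and no map from barcodes to samples, so it was treated as 1 sample without replicates. Intervals cover counting error only, and no test between animals, samples or glands was possible.

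The members held 1457304 UMIs, from 1388 to 89987 per cell with a median of 6796, and a median of 1831 genes. The median over all barcodes was 2608 UMIs. Mitochondrial genes took 2.88% of the UMIs in the median member. The depth was uneven, since 16 members held at least 50% of all members' UMIs and the deepest held 6.17%.

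Acta2, Cnn1 and Myh11 summed to 2 UMIs in the lowest member, 15 in the median and 93 in the highest. No member had a sum of 7 or 8, so the cells fell into 42 with 2 to 6 UMIs and 63 with 9 or more. Krt5 and Krt14 summed to 1 UMI in the lowest member, 3 in the median and 23 in the highest. At the edge of the choice stood 17 members with exactly 2 contractile UMIs, 36 with exactly 1 keratin UMI and 5 with 1 UMI of Rgs5 or Notch3. Just outside, 30 barcodes failed only by having 1 contractile UMI, 170 only by having no keratin UMI, 3 only through Rgs5 and Notch3 and 12 only through Ptprc.

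The label was checked with 4 contractile genes that took no part in the choice. Tagln, Myl9, Tpm2 and Mylk gave at least 1 UMI in 97 of the 105 members and none in 8, and 55 members had all 4. All 63 members with 9 or more contractile UMIs had them, with a median of 21 UMIs over the 4 genes. Of the 42 members with 2 to 6, 34 had any, with a median of 2. Outside the choice, 127 of the 170 barcodes without keratin UMIs and 16 of the 30 with 1 contractile UMI also had a UMI of these genes. So did 63 of the 396 barcodes (15.9%) that failed only by having no contractile UMI, at a median of 3571.5 UMIs. The share that free RNA would give at each member's depth was not measured. The 63 and the 42 are split on the sum of the choosing genes, at a gap seen in the data, so the difference between them is a description. The 42 rest on few molecules, so the name is less sure for them.

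The members differed widely from each other in acinar secretory RNA. A total of 40 secretory genes, among them Mucl2, Pip, Prol1 and the Scgb and Dcpp families of saliva proteins, took 65.3% of the members' UMIs. The share per cell was 2.23% in the lowest member, 26.7% in the median and 91.7% in the highest. At or below 50% were 66 members with a median of 4517 UMIs and a secretory share of 14.0%. Above 50% were 39 members with a median of 27100 UMIs and a secretory share of 82.8%. These 39 cells held 1087658 of the members' UMIs, so they make up most of the total by which a level over all 105 members is divided. The UMIs of a single list can lie elsewhere, as 3216 of the 4221 contractile UMIs were in the 66 cells.

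The split by secretory share followed the split by contractile UMIs only in part. Of the 63 members with 9 or more contractile UMIs, 50 were at or below 50% and 13 above. Of the 42 members with 2 to 6, 16 were at or below 50% and 26 above. The 13 cells with many contractile UMIs and a high secretory share had a median of 39824 UMIs and a median of 21 UMIs of the 4 contractile markers. The 26 with 2 to 6 contractile UMIs and a high share had a median of 19477 UMIs, a median secretory share of 80.2% and a median of 2 UMIs of the 4 markers, which 20 of the 26 had at all. Counts for most gene lists against the basal duct group are given for the 66 cells beside all 105, and single genes mostly for all 105. That split was chosen after the data had been seen.

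**Figure D1:**
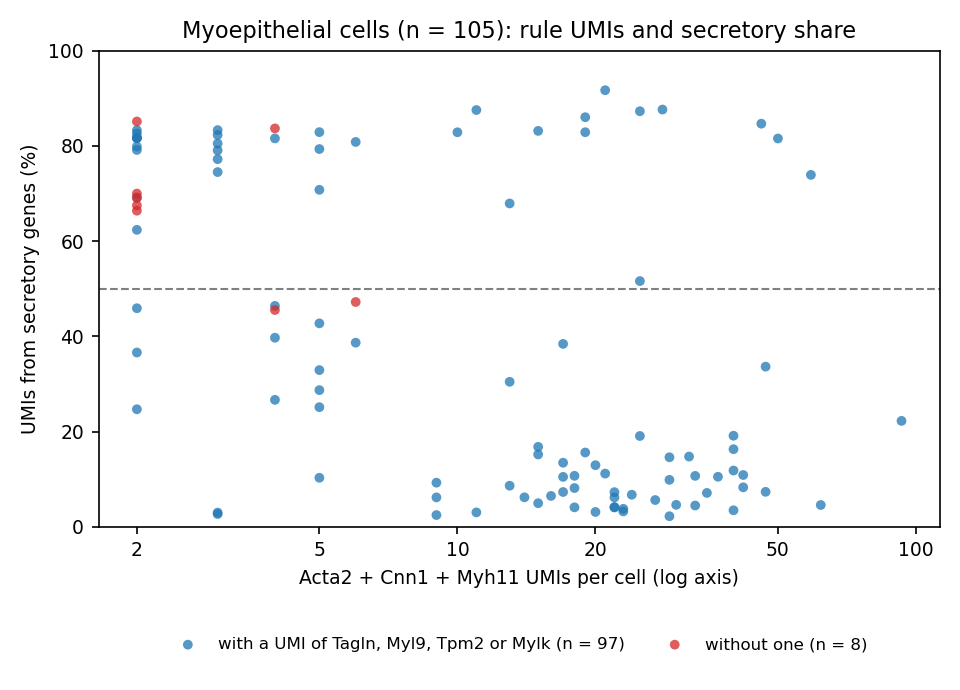
Each point is 1 of the 105 members, with the summed UMIs of Acta2, Cnn1 and Myh11 on a log axis and the share of its UMIs from 40 secretory genes in percent. The dashed line marks 50%, with 66 members at or below it and 39 above, and the 8 members without a UMI of Tagln, Myl9, Tpm2 or Mylk all have at most 6 contractile UMIs.

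The members were set beside 2 groups that share one side of their character each. The basal duct group had 154 barcodes with at least 2 UMIs of Krt5 and Krt14 and none of Acta2, Cnn1 and Myh11, at a median of 4828 UMIs. The mural group, the contractile cells around small vessels, had 95 barcodes with at least 2 UMIs of Rgs5 and Notch3 and no keratin 5 or 14, at a median of 2113 UMIs. Secretory genes took 32.8% of the UMIs in the basal duct group and 43.0% in the mural group. The groups were chosen on opposite sides of these genes, so counts of other contractile, keratin or mural genes that differ are descriptions.

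Because secretory RNA filled so much of the members' total, the median of 6828 compared genes was -0.92 on the log2 scale against the basal duct group. Against the mural group the median of 4938 genes was -0.66. Ratios below are therefore relative to the median gene, which means that this median is taken away from each log2 ratio of summed UMIs per 10000. On that scale 479 genes (7.02%) were at least 2-fold higher and 450 (6.59%) at least 2-fold lower in the members than in the basal duct group. Without the shift the counts were 112 (1.64%) and 3081 (45.1%). Against the mural group 506 (10.2%) were higher and 487 (9.86%) lower relative to the median gene, and 177 (3.58%) and 1538 (31.1%) without the shift.

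For the 66 members of low secretory share the shift had the other sign, with medians of 0.44 over 6322 genes against the basal duct group and 0.70 over 3967 genes against mural cells. Relative to the median gene 431 (6.82%) were higher and 426 (6.74%) lower than in the basal duct group, and 379 (9.55%) higher and 425 (10.7%) lower than in mural cells. Without the shift these counts were 1143 (18.1%) and 202 (3.2%), and 1270 (32%) and 214 (5.39%). The numbers of genes past 2-fold without the shift thus turned on the secretory share, while taking the median away balances higher and lower counts by its nature.

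The contractile genes separated the members from the basal duct group. Of 21 genes in the list, all outside the choice, 17 had the 20 UMIs over both groups needed for a comparison. Some passed only through the members, such as Lmod1 with 0 UMIs and Tagln with 7 in the basal duct group. The counts of higher genes are thus partly set by that minimum. Relative to the median gene 11 of the 17 were at least 2-fold higher in the members and none lower, where 7.02% of all genes were higher. Without the shift 8 were higher and none lower, beside 1.64% and 45.1% of all genes. The median of the 17 was 1.54 relative to the median gene. In the 66 members of low secretory share, 14 of 17 were higher relative to the median gene and none lower, beside 6.82% and 6.74% of all genes, with a median of 1.61.

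Together the 21 contractile genes stood at 29.0 UMIs per 10000 in the members (28.1 to 29.9), 87.0 in the 66 cells and 9.24 in the 39. The basal duct group had 16.0 and the lymphoid cells 10.5, with a UMI of 19 of the 21 genes in lymphoid cells. Myl6, a light chain found in most cells, gave 73.7% of the list's UMIs in lymphoid cells, 48.9% in the basal duct group and 27.2% in the members. The log2 ratio of the summed list to the basal duct group was 0.85 (0.77 to 0.93), or 1.77 relative to the median gene.

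Tagln (transgelin, an actin-binding protein of smooth muscle) stood at 4.06 UMIs per 10000 in the members (3.74 to 4.40), 12.1 in the 66 cells and 0.0626 in the basal duct group. That is a log2 ratio of 6.94 relative to the median gene (5.89 to 8.26). Myl9, the regulatory light chain that Mylk phosphorylates, stood at 2.33 in the members (2.09 to 2.59) and 0.0447 in the basal duct group, a ratio of 6.62 (5.39 to 8.26). Tpm2, a tropomyosin of muscle filaments, stood at 3.68 (3.37 to 4.00) and 0.170, a ratio of 5.36 (4.70 to 6.10). For each of these filament genes the intervals of the levels in the 2 groups lay far apart.

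Mylk, the kinase that starts contraction, stood at 1.76 UMIs per 10000 in the members (1.55 to 1.99) and 0.268 in the basal duct group, a ratio of 3.63 relative to the median gene (3.08 to 4.23). Cald1, caldesmon, reached 2.89 (2.36 to 3.45). Ppp1r12b, a subunit of the myosin phosphatase that ends contraction, reached 2.86 (1.57 to 4.42). Lmod1, which nucleates smooth muscle filaments, had 38 UMIs in the members and 0 in the basal duct group, a ratio of at least 4.20 with 3 UMIs over the group as the floor.

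Flna, filamin, had a ratio of 1.24 (0.89 to 1.61) and Myl6 0.93 (0.80 to 1.05). Actg2, the enteric smooth muscle actin, had 17 UMIs in 9 members (8.57% of cells) and 0 in the basal duct, mural, luminal duct and lymphoid groups.

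By cell, 77.1% of members had a UMI of Tagln against 0.868% of lymphoid cells, at median depths of 6796 and 2078 UMIs. For Mylk the shares were 61.0% and 1.36%. With every cell thinned to 1000 UMIs they were 49.5% and 0.496% for Tagln and 26.7% and 0.496% for Mylk. In the 66 members of low secretory share, the thinned shares were 71.2% for Tagln and 42.4% for Mylk. In the 39 others they were 12.8% and 0 (up to 9.03% at that depth by exact binomial), while at full depth 12 of the 39 had a UMI of Mylk.

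Against mural cells the contractile list was lower in the members. Of 20 compared genes, 13 were at least 2-fold lower relative to the median gene, where 9.86% of all genes were lower, and 1 was higher. Without the shift 17 were lower and 1 higher, beside 31.1% and 3.58%. The median was -1.37 relative to the median gene. Myl9 had a ratio of -2.57 (-2.76 to -2.38), Tagln -1.88 (-2.03 to -1.72) and Mylk -0.87 (-1.15 to -0.58). Ppp1r14a, an inhibitor of myosin phosphatase, had -3.66 (-4.69 to -2.74).

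The 1 higher gene was Pgm5, a protein of muscle attachment plaques. It was 2.40 higher than in mural cells (0.40 to 5.51, on 27 and 2 UMIs) and 2.97 higher than in the basal duct group (1.58 to 4.71). In both comparisons Pgm5 passed the minimum only through the members, so its direction was set by it and is a description. In the 66 cells the mural comparison gave 12 of 20 lower and 1 higher, beside 10.7% and 9.55% of all genes, with a median of -1.08. Without the shift 3 of 20 were lower and 1 higher there, beside 5.39% and 32%. The direction therefore held in both sets of members, and its size depended on the scale.

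**Figure D2:**
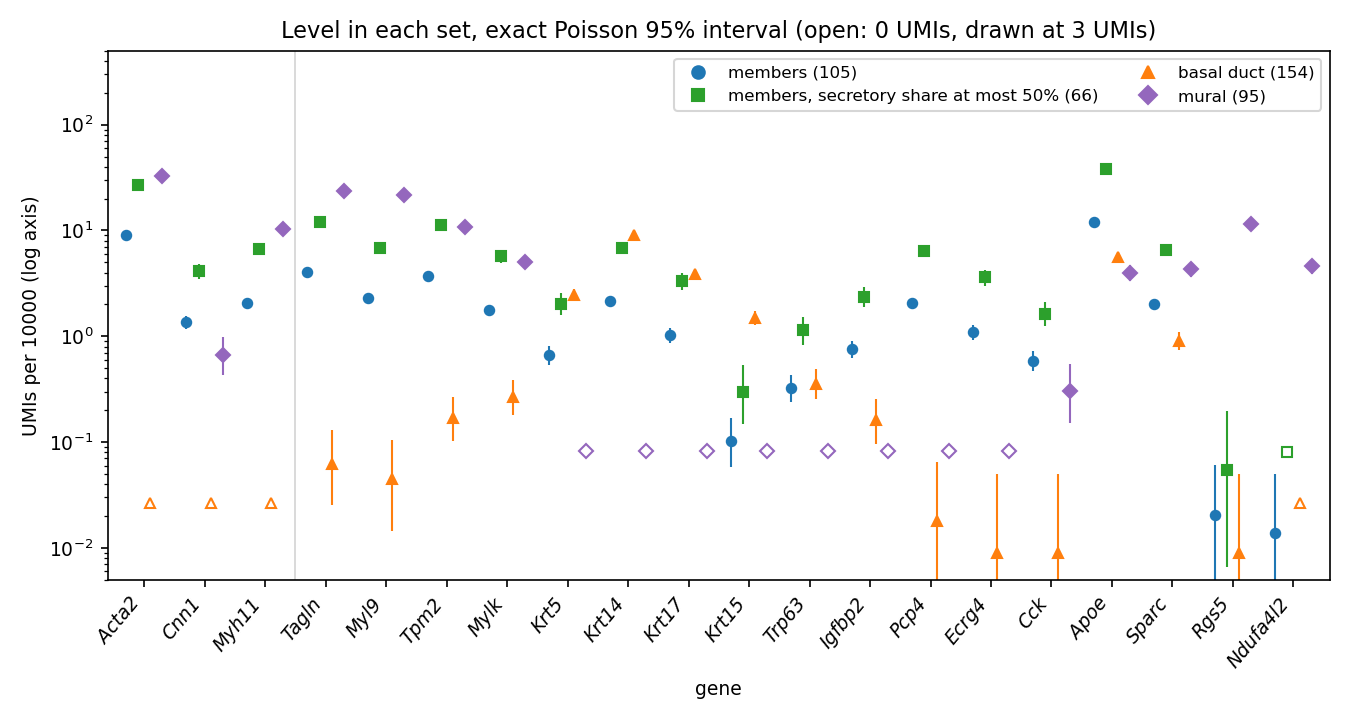
Summed UMIs per 10000 on a log axis for 20 genes in all 105 members, the 66 members of secretory share at most 50%, 154 basal duct and 95 mural cells, with exact Poisson 95% intervals. Acta2, Cnn1 and Myh11 left of the line chose the members, Krt5, Krt14, Rgs5 also took part in choosing cells, and open symbols are 0 UMIs drawn at 3 UMIs over the group.

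Many smooth muscle genes carry the CArG box, the core that serum response factor binds, near their start. The letters were searched in the 250 bases before the start in RefSeq promoters of build GRCm38.p6, for the contractile list with Acta2, Cnn1 and Myh11. The box reads the same on both strands, so a single search covers both. Of 24 genes 20 had an entry, with 24 promoters, and Tagln, Myh11 and Actg2 were among those without. The box was in 4 of the 24 promoters (16.7%) and in 482 of 32851 promoters of all genes (1.47%). The 4 stretches are shown because their genes belong to the contractile list, with the box in capitals, 5′ to 3′ on the gene's strand. Of these genes Myl6 was itself inside 2-fold of the basal duct group. A match is a description, not a site or a cause. They lie at chr2:156775278-156775337 (plus strand) for Myl9, chr10:79988519-79988578 (plus) for Cnn2, chr10:128493025-128493084 (minus) for Myl6 and chr14:20929148-20929205 (plus) for Vcl.
Myl9: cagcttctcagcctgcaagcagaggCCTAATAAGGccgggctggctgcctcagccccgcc
Cnn2: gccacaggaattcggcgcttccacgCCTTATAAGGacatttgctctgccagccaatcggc
Myl6: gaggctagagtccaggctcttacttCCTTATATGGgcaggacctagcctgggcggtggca
Vcl: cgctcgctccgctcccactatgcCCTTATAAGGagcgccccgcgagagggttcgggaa

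Calcium and rho signalling couple a stimulus to contraction. Of 14 genes of this list compared with the basal duct group, 4 were at least 2-fold higher relative to the median gene and none lower, beside 7.02% and 6.59% of all genes. Without the shift none was higher and 2 were lower, beside 1.64% and 45.1%. For the 66 cells it was 5 of 13 higher and none lower relative to the median gene, beside 6.82% and 6.74% of all genes, and 7 higher and none lower without the shift, beside 18.1% and 3.2%. Ppp1r12a, the targeting subunit of myosin phosphatase, had a ratio of 1.72 (1.20 to 2.25). Atp2a2, the pump that returns calcium to the reticulum, had 1.64 (1.26 to 2.03). The calcium release channel Itpr1 had 1.32 (0.67 to 2.00), and its relative Itpr3 1.13 (-0.13 to 2.44), an interval that includes no difference.

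Against mural cells 3 of 14 signalling genes were lower and 1 higher relative to the median gene, beside 9.86% and 10.2% of all genes, and 10 lower and none higher without the shift, beside 31.1% and 3.58%. The 66 cells gave 2 of 13 lower and 1 higher relative to the median gene, beside 10.7% and 9.55%, and 1 lower and 2 higher without the shift, beside 5.39% and 32%. The higher one in all members was Gnaq, the G protein subunit that links receptors to calcium release, at 1.31 (0.28 to 2.51). The lowest was Atp2b4, a calcium pump of the cell membrane, at -4.86 (-7.21 to -3.19, on 3 and 34 UMIs). Atp2b4 passed the minimum for a comparison only through mural cells, so its direction was set by it and is a description.

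Receptors that could start contraction were hardly seen at this depth. The 15 listed receptors and channels summed to 59 UMIs in the members, and only 2 could be compared with the basal duct group, neither of them past 2-fold in all 105 members. In the 66 cells 1 of the 2, Chrm3, was at least 2-fold higher, relative to the median gene and without the shift, beside 6.82% and 18.1% of all genes. Against mural cells 3 were compared, of which Ednra and Ednrb were lower relative to the median gene and all 3 without the shift. Ednra, with 24 UMIs in mural cells, and Ednrb had few UMIs in the members. Both passed the minimum for a comparison only through mural cells, so their direction was set by it and is a description. Kcnma1, a calcium-activated potassium channel, had 26 UMIs, and Chrm3, the muscarinic receptor of salivary secretion, had 15. Ednra, an endothelin receptor, had 5. Oxtr, Adra1b, Tacr1, Avpr1a and Bdkrb2 were at 0, where the floor of 3 UMIs over the group stands at 0.0206 UMIs per 10000 for each.

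Both the members and the basal duct group were chosen on Krt5 and Krt14, and mural cells without them, so the other basal epithelial genes are given as description. Of 14 compared with the basal duct group, 1 was higher and 4 lower by at least 2-fold relative to the median gene, beside 7.02% and 6.59% of all genes, with a median of -0.15. Without the shift 1 was higher and 9 lower, beside 1.64% and 45.1%. The summed list had a log2 ratio of -1.60, or -0.68 relative to the median gene. With the 66 cells alone 4 of 14 were higher and 2 lower relative to the median gene, beside 6.82% and 6.74% of all genes, and 5 and 2 without the shift, beside 18.1% and 3.2%. Against mural cells 10 of 11 were higher and none lower, beside 10.2% of all genes higher, with a median of 2.27. Mural cells had 0 UMIs of Trp63, Krt17, Col17a1 and Igfbp2 and 1 UMI of Lgals7. These genes passed the minimum for a comparison only through the members, so their direction was set by it. The counts against mural cells are therefore descriptions, for all members and for the 66 cells. Without the shift 7 were higher and none lower, beside 3.58% and 31.1%. The 66 cells gave 11 of 11 higher relative to the median gene, beside 9.55% and 10.7%, and the same without the shift, beside 32% and 5.39%.

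Trp63, the master regulator of basal epithelium, stood at 0.323 UMIs per 10000 in the members (0.237 to 0.429) and 0.358 in the basal duct group, a ratio of 0.77 relative to the median gene (0.13 to 1.42). Mural cells had 0 UMIs of it. It was seen in 30 members, or 28.6% of cells, against 0.248% of lymphoid cells, and in 8.57% and 0.124% when thinned. Col17a1, a collagen of hemidesmosomes, had a ratio of 0.84 (0.11 to 1.59) to the basal duct group. Neither passed 2-fold in the 105 members, while in the 66 cells the ratios were 1.23 and 1.06.

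Of 5 compared keratins outside the choice, Krt15, Krt17 and Krt7 were lower than in the basal duct group relative to the median gene and Krt8 and Krt18 were inside 2-fold, where 6.59% of all genes were lower. The summed keratins had a log2 ratio of -1.16, or -0.24 relative to the median gene. In the 66 cells 1 of 5 was lower, where 6.74% of all genes were, and the sum was at 0.43, or -0.01 relative to the median gene. Krt17 stood at 1.02 UMIs per 10000 (0.865 to 1.20) against 3.88, a ratio with an interval of -1.28 to -0.73 relative to the median gene. Krt15, a keratin of basal progenitors, had -2.94 (-3.81 to -2.18), on 15 UMIs against 168. Among other basal genes Sfn, the stratifin of stratified epithelia, had -2.43 (-2.83 to -2.05), and Lgals7, an epithelial galectin, -1.04 (-1.37 to -0.72). In the 66 cells Krt17 and Lgals7 were at -0.67 and -0.65, inside 2-fold, while Krt15 and Sfn remained at -2.77 and -2.11.

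The exception among the basal genes was Igfbp2, which binds insulin-like growth factors. It stood at 0.755 UMIs per 10000 in the members (0.620 to 0.910), 0.161 in the basal duct group and 0 in mural cells, a ratio of 3.15 to the basal duct group (2.43 to 3.96). A UMI of it was in 52 of 105 members (49.5%), 16 of 154 basal duct cells (10.4%) and 0.248% of lymphoid cells. Thinned to 1000 UMIs the shares were 19.0% in members, 3.25% in basal duct cells and 0 in lymphoid cells, where up to 0.457% is allowed.

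Genes of adhesion to the matrix were near the median gene, with 1 of 11 higher and 1 lower than in the basal duct group, beside 7.02% and 6.59% of all genes, and 1 higher and 3 lower without the shift, beside 1.64% and 45.1%. For the 66 cells it was 1 of 11 higher and none lower, beside 6.82% and 6.74% of all genes, and 4 and none without the shift, beside 18.1% and 3.2%. The higher one was Cav1, the coat protein of caveolae, at 2.35 (0.99 to 3.95). The lower one was Itgb4, the integrin chain of hemidesmosomes, at -1.34 (-1.96 to -0.75), which in the 66 cells was -0.97. Against mural cells, 1 of 11 was higher and 3 lower, beside 10.2% and 9.86% of all genes, and none higher and 4 lower without the shift, beside 3.58% and 31.1%. The 66 cells gave 2 of 10 higher and 1 lower relative to the median gene, beside 9.55% and 10.7%, and 6 and 1 without the shift, beside 32% and 5.39%. The higher one in all members was Itga6, the partner chain of Itgb4, at 1.05 (0.49 to 1.66), while Cav1 stood at -2.69 (-3.50 to -1.94). Cav1 in the members was thus between the levels of the epithelial and the vascular group.

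Basement membrane genes, 13 of 21 compared with the basal duct group, gave 3 higher and 1 lower relative to the median gene, beside 7.02% and 6.59% of all genes, with a median of 0.35. Without the shift 1 was higher and 5 lower, beside 1.64% and 45.1%. Taking the 66 cells alone, 4 of 13 were higher and 1 lower relative to the median gene, beside 6.82% and 6.74% of all genes, and 6 and 1 without the shift, beside 18.1% and 3.2%. Sparc, a matrix protein that binds collagen, had a ratio of 2.07 (1.74 to 2.41). The collagen IV chains Col4a2 and Col4a1 had 1.54 (0.79 to 2.33) and 1.06 (0.54 to 1.57).

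Against mural cells the summed basement membrane list had a log2 ratio of -1.24 (-1.42 to -1.05), or -0.58 relative to the median gene. In the 66 members of low secretory share it was 0.44 without the shift, the other sign, but -0.26 relative to the median gene, the same sign. Of 11 genes 3 were higher and 4 lower relative to the median gene, beside 10.2% and 9.86% of all genes, and 2 and 6 without the shift, beside 3.58% and 31.1%. Over the 66 cells 4 of 11 were higher and 4 lower relative to the median gene, beside 9.55% and 10.7%, and 4 and 3 without the shift, beside 32% and 5.39%. In all members Lamb3, an epithelial laminin chain, was higher, at 1.81 (0.33 to 3.76), and its partner Lama3 had 25 UMIs against 0, a ratio of at least 1.70. Lamb3 and Lama3 passed the minimum for a comparison only through the members, so their direction was set by it and is a description. The count of higher genes against mural cells is thus partly set by that minimum. Lamb2 at -3.86 (-4.88 to -2.96), Lama5 at -2.22 (-3.43 to -1.09) and Col18a1 at -2.07 (-3.30 to -0.91), components of vessel basement membranes among others, were lower.

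Among 28 secreted signals, 20 were compared with the basal duct group, with 6 higher and 4 lower relative to the median gene, beside 7.02% and 6.59% of all genes, and 3 higher and 8 lower without the shift, beside 1.64% and 45.1%. Over the 66 cells 5 of 18 were higher and 3 lower relative to the median gene, beside 6.82% and 6.74% of all genes, and 9 and 3 without the shift, beside 18.1% and 3.2%. Among the 6 higher ones Fst, follistatin, which binds activin, had 2.30 (1.38 to 3.32). Igfbp5 had 1.32 (1.08 to 1.56), with 14.4% of its UMIs from a single member. Lower were Wnt10a at -2.46 (-4.42 to -0.96), Igfbp4 at -2.40 (-3.52 to -1.45), the chemokine Cxcl14 at -2.18 (-3.90 to -0.82) and Tgfb2 at -1.35 (-2.02 to -0.72). Wnt10a, Igfbp4 and Cxcl14 had few UMIs in the members and passed the minimum for a comparison only through the basal duct group. Their direction was set by it and is a description, and the count of lower signals is partly set by it. Tgfb2 was at -0.90 in the 66 cells.

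Apoe, the lipid carrier apolipoprotein E, gave the most UMIs of these signals. It stood at 12.2 UMIs per 10000 in the members (11.6 to 12.7), 38.2 in the 66 cells, 5.57 in the basal duct group and 3.97 in mural cells. The ratios were 2.05 (1.92 to 2.18) and 2.27 (2.03 to 2.53) relative to the median gene. A share of 99.0% of members had a UMI against 15.01% of lymphoid cells, and 60.0% against 7.82% when thinned. At least 10 UMIs were found in 57 of 105 members (54.3%), 19 of 154 basal duct cells (12.3%) and 2 of 95 mural cells (2.11%).

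Against mural cells 5 of 18 secreted signals were higher and 5 lower relative to the median gene, beside 10.2% and 9.86% of all genes, and 4 and 9 without the shift, beside 3.58% and 31.1%. Over the 66 cells 4 of 17 were higher and 5 lower relative to the median gene, beside 9.55% and 10.7%, and 6 and 5 without the shift, beside 32% and 5.39%. Besides Apoe, in all members Edn2 at 2.89 (0.24 to 8.27, on 19 UMIs and 1, with 36.8% of the 19 from a single member) was higher, and Fst and the Notch ligand Jag2 were at 0 in mural cells, with ratios of at least 2.52 and 2.06. Edn2, Fst and Jag2 reached the minimum for a comparison through the members, so their direction was set by it and is a description. The counts of higher signals against mural cells are thus partly set by that minimum. Igfbp7 and the chemokine Cxcl12, both abundant around vessels, were far lower, at -5.81 (-6.58 to -5.13) and -5.02 (-7.36 to -3.36).

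Of 18 transcription factors compared with the basal duct group, 2 were higher and 1 lower relative to the median gene, beside 7.02% and 6.59% of all genes, and 2 and 5 without the shift, beside 1.64% and 45.1%. With the 66 cells alone 5 of 18 were higher and 1 lower relative to the median gene, beside 6.82% and 6.74% of all genes, and 8 and none without the shift, beside 18.1% and 3.2%. The higher ones in all members were Sox10, a factor of salivary progenitors and of neural crest, at 3.26 (1.90 to 4.98), and Id4, an inhibitor of helix-loop-helix factors, at 3.07 (2.24 to 4.01). Klf5 was lower, at -1.48 (-1.99 to -0.99). Sox10 rested on 33 UMIs in 24 members (22.9% of cells), against 1.61% of lymphoid cells, and thinning left 5.71% and 0.372%. Sox10 passed the minimum for a comparison only through the members, so its direction was set by it and is a description.

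The known drivers of the contractile program were thinly counted. Srf, serum response factor, had 19 UMIs, and its partner Myocd 1 UMI in the members and 7 in mural cells. Against mural cells 3 of 18 factors were higher and 2 lower relative to the median gene, beside 10.2% and 9.86% of all genes, and 3 and 3 without the shift, beside 3.58% and 31.1%. With the 66 cells alone 5 of 18 were higher and 2 lower relative to the median gene, beside 9.55% and 10.7%, and 14 and none without the shift, beside 32% and 5.39%. Higher in all members were Sox10 at 2.10 (0.43 to 4.45) and Snai2, a factor of basal cells, at 2.10 (0.08 to 5.23). Trp63 was higher too, by at least 2.61, since mural cells had 0 UMIs. All 3 passed the minimum for a comparison only through the members, so their direction was set by it and is a description. The count of 3 higher factors against mural cells is thus set by that minimum as well.

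**Figure D3:**
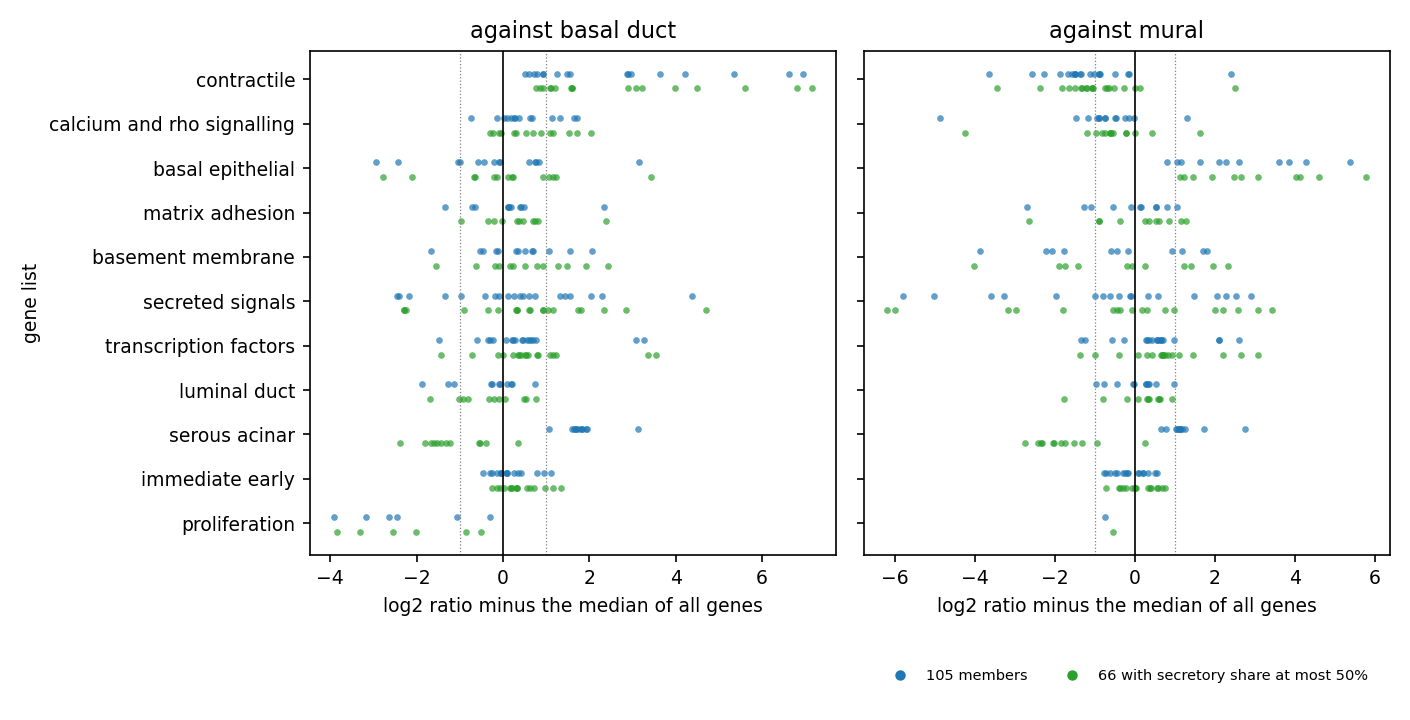
Each point is a gene of the list named at the left, compared at 20 or more UMIs, with the log2 ratio of its summed level relative to the median gene against basal duct (left) and mural cells (right). Blue is for all 105 members and green for the 66 of low secretory share, dotted lines mark 2-fold, and the contractile list has 11 of 17 genes past it against basal duct.

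Ranked by ratio among genes with at least 50 UMIs, the 15 genes highest against the basal duct group were headed by Ecrg4, Pcp4 and Cck. Ecrg4, a secreted peptide precursor, had 159 UMIs in the members and 1 in the basal duct group, a ratio of 7.85 relative to the median gene (5.35 to 13.17). Pcp4, a regulator of calmodulin, had 299 UMIs and 2, a ratio of 7.76 (5.90 to 10.82). Cck, the cholecystokinin precursor, had 86 and 1, a ratio of 6.97 (4.45 to 12.29). Tspan2, a tetraspanin, had 54 and 1, a ratio of 6.30 (3.76 to 11.63). Tagln, Myl9, Tpm2 and Mylk were among the same 15.

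The others of the 15 were Pgf, a growth factor of the VEGF family, at 5.24 (3.32 to 8.32), Gas1, a hedgehog coreceptor, at 4.49 (3.40 to 5.84), and Ckb, brain creatine kinase, at 4.24 (3.05 to 5.73). Postn, the matrix protein periostin, had 67 UMIs against 0, a ratio of at least 5.02. Kcne1, a potassium channel subunit, at 3.37 (2.30 to 4.65), Dcpp1 at 3.29 (3.25 to 3.33) and Mup6 at 3.19 (2.26 to 4.26) completed them. These last 3 turned to -0.25, -1.92 and -2.30 in the 66 members of low secretory share. They had 54 of 57, 40080 of 40798 and 68 of 69 of their UMIs in the 39 other members.

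Pcp4 and Ecrg4 were seen in many members and few other cells. A UMI of Pcp4 was in 70 of 105 members (66.7%), 2 of 154 basal duct cells, 0 of 95 mural cells (up to 3.81% by exact binomial) and 0.248% of lymphoid cells. Ecrg4 was in 47 members (44.8%), 1 basal duct cell, 0 mural cells and 0.124% of lymphoid cells. Thinned, the members' shares were 35.2% and 19.0%, against 0 and 0.124% of lymphoid cells. Among all 15602 other barcodes 112 had Pcp4 and 48 had Ecrg4.

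Of the 63 members with 9 or more contractile UMIs, 61 had a UMI of Igfbp2, Pcp4 or Trp63, with a median of 6 over the 3 genes. Of the 42 with 2 to 6, 13 had any, at a median depth of 12969 UMIs against 6269. Those were 4 of the 26 of high secretory share and 9 of the 16 others. The split is on the choosing genes, and Pcp4 and Igfbp2 are named because they were high in the members, so these counts are descriptions.

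By the Ensembl identifiers of the features and GENCODE M21 on GRCm38, Ecrg4 (ENSMUSG00000026051) lies on chromosome 1 from 43730602 to 43742578 and Igfbp2 (ENSMUSG00000039323) on the same chromosome from 72824503 to 72852474. Pcp4 (ENSMUSG00000090223) lies on chromosome 16 from 96467606 to 96525793. Cck (ENSMUSG00000032532) and Tagln (ENSMUSG00000032085) both lie on chromosome 9, from 121489824 to 121495694 and from 45929619 to 45936058. Thus the leading genes are spread over several chromosomes.

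Lowest against the basal duct group was Ndrg1, a gene of differentiation and stress, at -3.57 (-5.48 to -2.15). Duox2, an oxidase of ducts, was at 0 in the members and 50 UMIs in the basal duct group, a ratio of at most -3.52. Ly6d, a surface protein of squamous cells, had -3.02 (-3.39 to -2.68). Ccn4, Aldh3a1, Smoc2, Pcdh19, Krt15 and Fgfbp1 were also among the 10 lowest, between -2.98 and -2.92. Of these Aldh3a1, an aldehyde dehydrogenase of surface epithelia, had 8 UMIs in the members.

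Among the 15 genes highest against mural cells, Gas1 had a ratio of 5.40 (2.89 to 10.71, on 108 UMIs and 1) and Lgals7 5.38 (2.87 to 10.70, on 107 and 1). Mia, a small secreted protein of cartilage and melanoma, had 5.06 (3.50 to 7.35). Pcp4, Ecrg4, Krt17, Igfbp2 and Sult5a1 were at 0 in mural cells, with ratios of at least 5.28, 4.37, 4.28, 3.84 and 2.70. None of these 5 was detectable in mural cells at this depth.

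Further down these 15 were Sostdc1, an antagonist of BMP and Wnt signals, at 3.53 (1.61 to 6.60), Ntrk3, a neurotrophin receptor, at 3.29 (1.36 to 6.37), and Postn at 2.71 (1.29 to 4.63). Dcn, decorin, had 3.33 (2.43 to 4.41). Smgc had 3.58 (3.44 to 3.73). Bpifa2, an acinar saliva protein, had 2.75 (2.60 to 2.90), which turned to -2.76 in the 66 cells.

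Of the 10 genes lowest against mural cells, each had at most 7 UMIs in the members. Cox4i2 had 1 UMI against 88, a ratio of -7.82 (-13.14 to -5.30), and Ndufa4l2 had 2 against 165, a ratio of -7.72 (-10.78 to -5.85), both related to subunits of the respiratory chain and known from pericytes. Sncg, Nrip2, Gm13889, Rrad and Mustn1 lay between -7.29 and -6.51. Des, the muscle filament desmin, had -6.22 (-8.52 to -4.62) and Ebf1, a pericyte factor, -6.19 (-9.27 to -4.27). Rarres2 was at 0 in the members, a ratio of at most -5.82.

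Against all 15602 other barcodes, the median of 13973 genes was 0.70, with 2356 (16.9%) higher and 1516 (10.8%) lower relative to it. Without the shift 4883 (34.9%) were higher and 649 (4.64%) lower. The 15 highest were Ecrg4, Fhod3, Pcp4, Igfbp2, Postn, Cck, Fmod, Tspan2, Ism1, Pgm5, Pgf, Osr1, Col17a1, Trp63 and Ntng1. Fhod3, a formin that builds actin filaments in muscle, had 39 UMIs in the members and 23 in all other barcodes together. Ecrg4 had 159 and 80, so 105 cells held more of its UMIs than the remainder of the matrix. Pcp4 had 299 and 188.

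Smgc, a mucin-like protein known from the neonatal submandibular gland, was very uneven. The members had 12791 UMIs of it, or 87.8 per 10000, against 32.6 in the basal duct group, a ratio of 2.35 relative to the median gene (2.30 to 2.41). At least 100 UMIs were in 14 of 105 members (13.3%, 7.49% to 21.4%), 12 of them among the 66 of low secretory share. Only 4 of 154 basal duct cells (2.60%), 0.868% of lymphoid cells and 1.76% of all other barcodes had as many. A single member gave 16.8% of the members' Smgc UMIs, and 5 gave at least 50%.

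Acinar genes describe the split by secretory share, since 6 of the 12 serous and 3 of the 9 mucous and demilune genes are among the 40 that made it. All 12 serous genes were higher than in the basal duct group relative to the median gene, with a median of 1.75, and 2 of 12 without the shift, where 7.02% and 1.64% of all genes were higher. In the 66 cells none was higher and 8 were lower relative to the median gene, beside 6.82% and 6.74% of all genes, with a median of -1.38. The 8 compared mucous and demilune genes were all higher, beside 7.02% of all genes, with a median of 2.45 (7 without the shift, beside 1.64%), and in the 66 cells 1 of 6 was higher and 5 lower, beside 6.82% and 6.74%. At least 100 UMIs of Dcpp1, a demilune protein, were in 27 of the 39 cells and 3 of the 66. The serous list summed to 5315 UMIs per 10000 in the members, 3021 in the basal duct group and 3922 in mural cells, with Mucl2 the most abundant gene and no gene at 0. The part of this RNA in the members' other values was not tested.

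Luminal duct genes were not raised. None of 11 was higher than in the basal duct group and 3 were lower relative to the median gene, and 6 lower without the shift, beside 6.59% and 45.1% of all genes. Over the 66 cells none of 11 was higher and 2 were lower, beside 6.82% and 6.74% of all genes, and 1 and 1 without the shift, beside 18.1% and 3.2%. The 3 were Wfdc2 at -1.87 (-2.17 to -1.58), the claudin Cldn4 at -1.26 (-1.58 to -0.95) and Krt7 at -1.14 (-1.41 to -0.88). Krt7 was at -0.80 in the 66 cells. The list summed to 49.8 UMIs per 10000 in the members, 100.1 in the 66 cells, 99.7 in the basal duct group and 529 in luminal duct cells, with Klk1, a kallikrein, giving 55.1% of it in the members.

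Markers of mural and endothelial cells were near 0. Of 13 mural genes outside the choice 9 had a UMI, with 19 UMIs in all or 0.130 per 10000 against 15.3 in mural cells, Mcam the most abundant with 4. The defining Pdgfrb, Cspg4, Higd1b and Vtn were at 0. Of 10 endothelial genes 6 had a UMI, 9 in all or 0.0618 per 10000 against 53.7 in endothelial cells, Egfl7 the most abundant with 3 and Cdh5, Kdr, Emcn and Tie1 at 0. Contractile RNA in the members came with hardly any RNA of these mural and endothelial markers, but the choice itself allowed at most 1 UMI of Rgs5 and Notch3. The basal duct group was also near 0, at 0.197 per 10000 for the mural and 0.143 for the endothelial list.

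Other markers of non-epithelial cells were counted more often. Of 10 fibroblast genes 7 had a UMI, 374 in all or 2.57 per 10000 (8.49 in the 66 cells) against 241 in fibroblasts, 11.7 in the basal duct group, 3.05 in mural and 2.43 in lymphoid cells, and Dcn gave 69.0% of them. Lum, Dpt and Mfap5 were at 0. Dcn itself was lower than in the basal duct group, at -1.58 (-1.78 to -1.38), and 3 of 105 members but 45 of 154 basal duct cells had at least 10 UMIs of it. The 10 macrophage genes summed to 124 UMIs, or 0.851 per 10000, with Tyrobp the most abundant and Mrc1 at 0. The 9 lymphoid genes outside the choice summed to 90 UMIs, or 0.618 per 10000 against 56.9 in lymphoid cells, with Cd52 the most abundant and Cd3e, Cd3g and Ncr1 at 0.

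Of 10 Schwann cell genes 8 had a UMI, 101 in all or 0.693 per 10000, with Erbb3 the most abundant at 41 and Cdh19 and S100b at 0. Pmp22, a myelin protein also made outside nerve, had 32 UMIs against 2 in the basal duct group, a ratio of 4.54 (2.57 to 7.65). Pmp22 passed the minimum for a comparison only through the members, so its direction was set by it and is a description. The 6 erythroid genes summed to 6 UMIs, Hbb-bs the most abundant with 4. The part of these low counts in the other values was not tested.

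The sum of the proliferation genes was lower in the members than in the basal duct group, while the interval of its ratio to all other barcodes includes 0 without the shift. The 10 listed genes summed to 60 UMIs in the members, 32 of them Pcna, or 0.412 per 10000, 1.11 in the 66 cells, 2.34 in the basal duct group, 0.668 in luminal duct cells and 0.388 in all other barcodes. The log2 ratio of the sum to the basal duct group was -2.51 (-2.94 to -2.10), or -1.59 relative to the median gene, and in the 66 cells -1.08, or -1.52 relative to the median gene. To all other barcodes it was 0.09 (-0.31 to 0.45), or -0.61 relative to the median gene. Most single genes of the list reached 20 UMIs through the basal duct group, so a count of lower genes is not given. Top2a, which untangles chromosomes before division, had 2 UMIs against 26, a ratio of -3.16 (-6.28 to -1.16). Ube2c of the anaphase complex had -2.46 (-4.42 to -0.96). Top2a and Ube2c passed the minimum of 20 UMIs through the basal duct group, so their direction was set by it and is a description. The replication clamp Pcna, with 32 UMIs in the members, had -1.06 (-1.68 to -0.47), which was -0.85 in the 66 cells.

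Immediate early genes, which dissociation can switch on, were near the median gene. Of 16 compared with the basal duct group, 1 was higher and none lower, with a median of 0.08, beside 7.02% and 6.59% of all genes, and without the shift none was higher and 4 were lower, beside 1.64% and 45.1%. Over the 66 cells 2 of 16 were higher and none lower relative to the median gene, beside 6.82% and 6.74% of all genes, and 5 and none without the shift, beside 18.1% and 3.2%. The higher one was Socs3, a feedback inhibitor of cytokine signals, at 1.12 (0.79 to 1.45). Against mural cells none of 16 was past 2-fold relative to the median gene, beside 10.2% higher and 9.86% lower of all genes, and 5 were lower and none higher without the shift, beside 31.1% and 3.58%. The 66 cells gave none past 2-fold relative to the median gene, beside 9.55% and 10.7%, and 7 higher and none lower without the shift, beside 32% and 5.39%. The list summed to 92.0 UMIs per 10000 in the members, 278 in the 66 cells, 166 in the basal duct group and 166 in mural cells.

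Clustering of all barcodes used every gene, the choosing genes included, so the place of the members is a description. Of 24 clusters 8 held members. Cluster 8, with 568 cells, held 66 members (62.9%), 62 of them of low secretory share, and was led by Ecrg4, Pcp4, Slc13a2, Slc9a3, Igfbp2 and Clic6. It had 9 luminal duct markers and no myoepithelial marker in at least 25% of its cells, so it mixes the members, 11.6% of it, with other cells and was given no name. Cluster 12, led by Muc19, Syt7 and Gal, held 19 members, all of high secretory share. The other 20 members lay in 6 clusters, 9 of them in cluster 1 with serous markers and 3 in cluster 16, which held 115 of the 154 basal duct cells.

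At a finer resolution the members stood more apart. At resolution 0.8 a single cluster of 166 cells held 74 members, 44.6% of its cells, among them 61 of low and 13 of high secretory share. With 30 principal components a cluster of 139 cells held 65 members. Doublet calling did not work on the pooled matrix, as 0 of 15707 barcodes were called. By score alone, 1 of 105 members was above the 90% quantile of all barcodes, against 5.19% of basal duct cells and 6.32% of mural cells.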

How the data were processed

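The authors deposited 1 matrix of UMI counts made with Cell Ranger 6.0.1 on build mm10 from 10x Genomics libraries of 4 samples. The annotation and filters on cells are not stated. All 15707 barcodes were kept. The members and the gene lists were chosen with earlier results of these data known.

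UMIs were summed per group and divided by the group's total. Intervals at 95% are exact Poisson for levels, exact binomial for shares and exact conditional binomial for ratios. They cover counting error only, and the median depth was 2608 UMIs per barcode. A ratio needed at least 20 UMIs over both groups, and a group at 0 was given 3 UMIs. A gene with few UMIs in 1 group thus passed only through the other, which partly sets the direction of its ratio. Named genes are those of the gene lists, with the 15 highest and 10 lowest ratios to the basal duct and mural groups and the 15 highest to all other barcodes, at 50 or more UMIs. Genes of the choice were left out of ratios. Basal duct cells also had at most 1 UMI of Rgs5 and Notch3 and none of Ptprc, and mural cells none of Ptprc, Pecam1 and Cdh5. Lymphoid cells had at least 1 UMI of Ptprc and 2 of Nkg7, Cd3e, Cd3g and Klrb1c. Without Ptprc, Krt5 and Krt14, luminal duct cells had at least 2 UMIs of Krt7 and Krt19 and no contractile UMI, fibroblasts 5 of Col1a1, Col1a2, Col3a1 and Dcn, and endothelial cells 3 of Pecam1, Cdh5 and Kdr. Clusters came from Seurat 5.3.0 in R 4.3.3 (2000 variable genes, 20 principal components, resolution 0.5), doublet scores from Scrublet in scanpy 1.11.5. Sums and intervals used scipy 1.17.1, numpy 2.4.6 and pandas 2.3.3 under Python 3.11.15, and plots matplotlib 3.10.9. The statistics were tested on simulated data.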

Additional observations from a re-analysis of the deposited data

How the results depend on the processing

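The summed levels and the counts of genes past 2-fold without the shift depend on how much secretory RNA stays in the members, and the cause was not tested. The named ratios relative to the median gene depend on it less, since 91 of 113 stayed inside their interval without the members of high secretory share, 18 moved outside it and 4 changed sign. The 2 alternatives that leave out the members of high secretory share or take away the median gene were chosen after seeing the data. With at least 5 contractile and 2 keratin UMIs there were 61 members, and without those of high secretory share 66. The contractile level of 29.0 UMIs per 10000 became 45.3 under the stricter choice, 25.4 with 1 contractile UMI allowed, 87.0 without the high share, 83.6 with secretory genes out of the total, 87.4 as a mean over cells and 88.1 thinned. Its log2 ratio to basal duct of 0.85 became, in that order, 1.50, 0.66, 2.44, 1.81, 2.31 and 2.22, and 1.77 relative to the median gene. The basement membrane ratio to mural of -1.24 became -0.59 under the stricter choice, 0.44 (reversed, but -0.26 relative to its own median gene) without the high share, -0.52 with secretory genes out, -0.38 as a mean, -0.59 thinned and -0.58 relative to the median gene. Genes higher than basal duct, 112 as reported, were 171 under the stricter choice, 1143 without the high share, 514 with secretory genes out, 506 as a mean, 49 at 50 UMIs and 479 relative to the median gene. Genes lower, 3081, were 1394, 202, 440, 1069, 1573 and 450 in that order, and 210 thinned, where fewer genes were compared. Genes higher than mural, 177, were 1270 without the high share, 564 with secretory genes out, 711 as a mean, 80 thinned, 37 at 50 UMIs and 506 relative to the median gene. Genes lower, 1538, were 635 under the stricter choice, then 214, 452, 727, 185, 555 and 487. Without the high share Kcne1, Dcpp1 and Mup6 turned to -0.25, -1.92 and -2.30 against basal duct and Bpifa2 to -2.76 against mural. Over the 9 alternatives that can change them, 882 values of the named ratios stayed inside their interval (within 2-fold where a group was at 0) and 124 moved outside it with the same sign, 45 of these thinned and 33 as a mean. Secretory genes out of the total cannot change a ratio relative to the median gene and is not counted. Requiring 0 UMIs of Rgs5 and Notch3, filtering on genes and mitochondrial share, leaving out the 10% highest doublet scores and taking away free RNA (299 UMIs per barcode) kept each main value within its interval or each count within 1.5-fold. The free RNA step took only 2.26% of the members' UMIs, of which 65.3% were secretory. It could therefore change little and is a weak check on secretory RNA. The cluster with the most members held 65 to 74 at other settings, and its make-up went from 62 of low and 4 of high secretory share to 61 and 13 at resolution 0.8.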

Other observations

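The matrix is a single pool without replicates, so differences between animals, glands or samples were not measured. Depth limits the rare genes most: with 1457304 UMIs over the members, a gene at 0 allows up to 0.0206 UMIs per 10000, and most receptors had under 20 UMIs. A barcode without a keratin UMI fell outside the choice, and 170 barcodes did so by that alone.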
